A study of Danio rerio with 39 samples.

Results

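The change in gene expression between day 1 and day 2 of normal zebrafish development was followed in whole AB* embryos that had received only the vehicle, DMSO. Members were chosen by label alone. They were the 4 DMSO day 2 arrays and the 4 DMSO day 1 arrays, 8 of the 39 arrays of a time course in which embryos were sampled daily from day 1 to day 5 after a 1 h exposure, at 4 to 5 h after fertilization, to DMSO or to 1 ng/mL of the dioxin TCDD. The whole course was repeated as 4 separate experiments about a week apart, so each experiment supplied 1 DMSO day 2 array and 1 DMSO day 1 array. Each array carried Cy5-labelled RNA from a pool of embryos against Cy3-labelled RNA from Zf4, a fibroblast line grown from day-old zebrafish embryos. Values are therefore log2 ratios of embryo to Zf4 RNA, and a change is the DMSO day 2 value minus the DMSO day 1 value. Because whole embryos were pooled, more cells of a type and more RNA per cell cannot be told apart. TCDD day 2 (3 arrays), TCDD day 1 (4 arrays) and DMSO days 3 to 5 (12 arrays) were used only for comparison, and every group was dosed in the same dilute salt medium.

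Day 1 lies at the end of segmentation, when the tail bud still adds the last somites, myoblasts are fusing into fibres and the lens and retina are young epithelia. During the following day the heart beats and blood circulates, and neurons go on extending axons. Lens fibre cells fill with crystallins, fast muscle matures, pigment appears and the embryo nears hatching. Many regulators of early patterning are switched off as their work is done, while structural and metabolic genes of the new tissues are switched on.

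The arrays separated the days. Correlation over all probes had a median of 0.925 for pairs of arrays of the same day (12 pairs, 0.910 to 0.961), against 0.870 for pairs of different days within an experiment (4 pairs) and 0.856 across experiments (12 pairs). Embryo RNA gave a signal clearly over background on 17059 to 18019 probes of the day 2 arrays, and on 16697 to 17674 of the day 1 arrays. Defining genes of muscle (*ckma*), blood (*hbae3*), neurons (*elavl3*), epidermis (*krt4*) and hatching gland (*he1.2*) lay above the Zf4 level on all arrays of both days, whereas the atrial peptide gene *nppa* was well above background on 4 day 2 arrays and on 1 day 1 array.

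In total 6779 of 21492 probes tested (31.5%) differed between day 2 and day 1 at an adjusted p below 0.05 (limma with the experiment as a block, Benjamini-Hochberg over all probes). Of these, 3146 probes were higher on day 2 (14.6% of those tested) and 3633 were lower (16.9%). The 2 days did not overlap for 5772 (27.2%) of the 21235 probes measured on each of the 8 arrays. Most differences were small, with a median size of 0.61 on the log2 scale, and 1686 probes (7.84%) differed by 2-fold or more. The larger differences leaned upwards. At 2-fold or more, 995 probes rose (4.63%) and 691 fell (3.22%), at 4-fold or more 289 rose and 95 fell, and at 8-fold or more 90 rose and 18 fell. The direction was the same in all 4 experiments for 6475 of the called probes (95.5%). Over all probes the median change was -0.02.

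Genes were described in 39 lists by tissue, pathway or process, with 1 probe per gene and 1132 probes in all. A gene could stand in more than 1 list, as 85 did. Counts for a list are read beside the 14.6% and 16.9% of all probes called higher and lower.

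**Figure D1:**
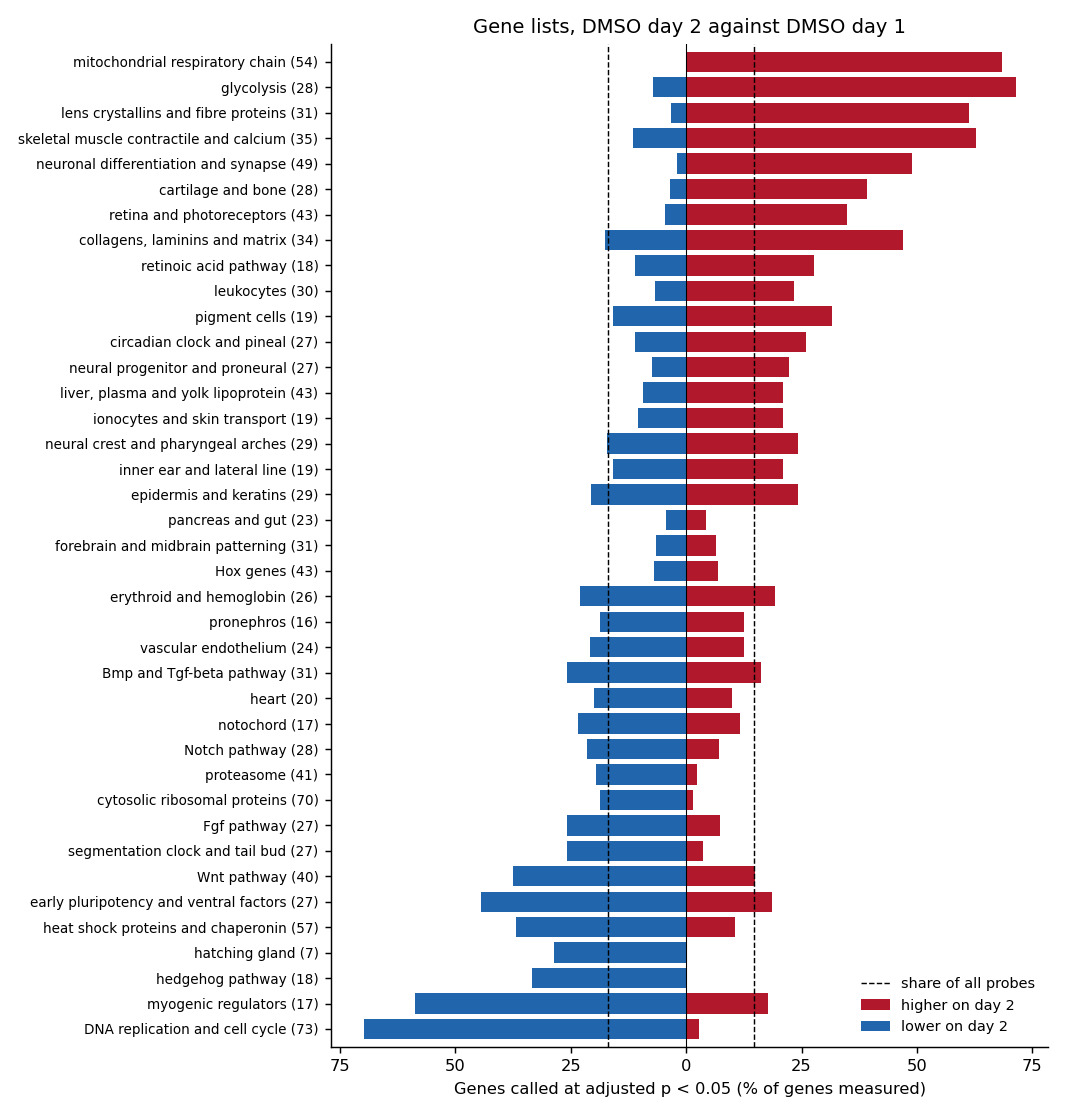
Share of the measured genes of each of 39 lists (number measured in parentheses) called higher on day 2 than on day 1 (red, to the right) or lower (blue, to the left) at an adjusted p below 0.05, in percent, ordered by the share higher minus the share lower. Dashed lines mark the 14.6% and 16.9% of all probes called in each direction. Respiratory chain, glycolysis, lens and muscle lists extend far to the right, and the cell cycle and myogenic regulator lists far to the left.

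Lens genes gave some of the largest rises. Of 31 lens genes measured, 19 rose, 18 of these by 2-fold or more, and 1 fell (0 without experiment 1 or 2), with a median change of 2.48 over the list. *crygm3*, a gamma M crystallin of the fish lens, had log2 ratios of 5.14, 6.06, 6.05 and 5.11 on day 2 in experiments 1 to 4, against -1.24, -1.26, -0.61 and -0.86 on day 1. All day 2 arrays were far above all day 1 arrays, and the mean rose 96.0-fold (change 6.58 ± 0.36 SE, adjusted p = 1.22e-08). The related crystallin genes *crygm2c* and *crygm2d18* rose 84.7-fold and 53.6-fold, and *crygm2d8*, which was well above background on only 1 day 1 array, rose by 5.54 on the log2 scale. *cryaa*, encoding alpha A crystallin, a small heat shock protein of lens fibres, averaged 2.93 ± 0.41 on day 2 and 0.45 ± 0.57 on day 1 (SD, n = 4 each), a 5.56-fold rise (adjusted p = 2.19e-06). Its 3 probes all rose, by 2.48 to 6.05.

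Some lens genes emerged from background. *grifin*, a galectin-related protein of lens fibres, had a probe at 5.65, 7.79, 7.30 and 6.20 on day 2 that was not well above background on any day 1 array, a rise of at least 26.7-fold (adjusted p = 0.000149). For such probes the bound sets the mean day 2 embryo signal against the lowest signal that counts as above background on the day 1 arrays. *bfsp2*, encoding the beaded-filament protein phakinin, rose at least 19.3-fold by the same measure, and *lctla*, a lactase-like gene, at least 24.4-fold. By contrast the lens transcription factor genes did not pass the test. *maf* averaged 3.05 ± 1.19 on day 2 and 4.58 ± 0.58 on day 1 (adjusted p = 0.120), although it was called lower without experiment 3 (adjusted p = 0.0336), and *pitx3* averaged 0.08 ± 0.16 and 0.24 ± 0.14 (adjusted p = 0.348).

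Among genes of the retina, several that mark the first differentiating cells rose. Of 43 retina and photoreceptor genes, 15 rose, 12 of them by 2-fold or more, and 2 fell (1 without experiment 1 or experiment 3), with a median of 0.43. *crx*, a homeobox gene of photoreceptor precursors, had 6.12, 5.62, 5.28 and 5.90 on day 2, against 1.43, 0.67, 0.93 and 1.11 on day 1. The days were widely separated, with a 25.9-fold rise (4.69 ± 0.23 SE, adjusted p = 5.07e-09). *crx* is also counted in the clock and pineal list below, and whole-embryo RNA does not show which tissue its rise came from. *pde6gb*, a subunit of the photoreceptor phosphodiesterase, rose 31.4-fold (4.97 ± 0.34 SE, adjusted p = 9.05e-08). *atoh7*, a bHLH gene required for retinal ganglion cells, had 4.64, 5.46, 5.71 and 5.15 on day 2, against 2.69, 0.78, 0.74 and 1.04 on day 1. The day 1 value of experiment 1 stood above the other three, and the gene rose by 3.93 ± 0.69 SE on the log2 scale (adjusted p = 0.000478). *vsx1*, a homeobox gene of bipolar cells, rose 14.8-fold, but its days overlapped, at 4.37 to 9.38 on day 2 and 1.43 to 5.22 on day 1 (adjusted p = 0.0274), and the call was lost without experiment 2 (adjusted p = 0.102) or experiment 4 (adjusted p = 0.249).

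The early eye-field genes *six3b*, *rx1*, *rx2* and *rx3* did not rise. *six3b*, a homeobox gene of the early eye and forebrain, was 1.38-fold lower on day 2 with no overlap between days (adjusted p = 0.00239). The retinal homeobox genes *rx1*, *rx2* and *rx3* had differences of -0.72, -0.25 and -0.64, none past the test (adjusted p = 0.446, 0.659 and 0.0960).

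**Figure D2:**
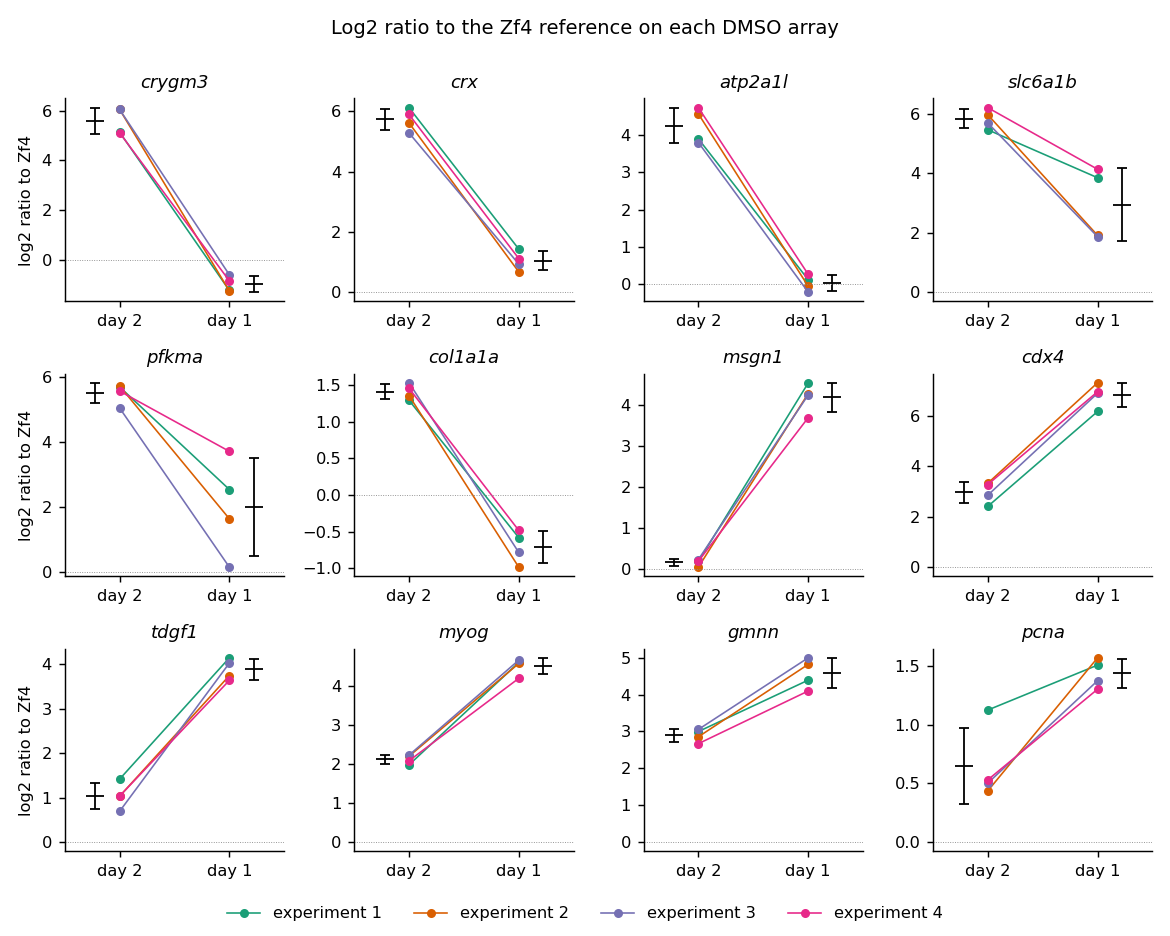
Log2 ratio to the Zf4 reference on each DMSO array for 12 genes, with day 2 at the left and day 1 at the right of each panel; lines join the 2 arrays of an experiment and black marks show mean ± SD (n = 4). In all 12 genes the 4 day 2 arrays lie wholly above or wholly below the 4 day 1 arrays, and *crygm3*, for example, stands at 5.11 to 6.06 on day 2 and -1.26 to -0.61 on day 1.

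Skeletal muscle moved in opposite directions at its structural and regulatory levels. Of 35 contractile and calcium-handling genes 22 rose, 16 by 2-fold or more, and 4 fell, with a median of 0.97. *atp2a1l*, a sarcoplasmic reticulum calcium pump gene, had 3.89, 4.56, 3.79 and 4.72 on day 2, against 0.13, -0.05, -0.21 and 0.27 on day 1. Its ratio lay near the Zf4 level on every day 1 array and far above it on every day 2 array (18.5-fold, adjusted p = 4.75e-09). *ckma*, muscle creatine kinase, rose 5.68-fold, *tpma*, alpha-tropomyosin, 4.19-fold and *eno3*, the muscle enolase, 4.14-fold. Among genes with the largest rises on the whole array were *pvalb5*, a parvalbumin that buffers calcium in fast fibres (18.9-fold), *ckmt2b*, a mitochondrial creatine kinase (18.7-fold), and a second probe of *tnnt3b*, fast troponin T (15.8-fold). All 7 probes of *tnnt3b* rose, by 1.83 to 3.98. *tnni2b.2*, fast troponin I, was at 5.74, 6.46, 6.03 and 4.88 on day 2 and not well above background on day 1, a rise of at least 90.6-fold (adjusted p = 1.63e-08). Probes for *atp2a1*, *myhz1.1* and *mylpfa* were saturated on all 4 day 2 arrays, so their measured changes are compressed.

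A pair of troponin T genes went the other way. *tnnt1*, slow troponin T, had 2.56, 3.77, 2.87 and 2.35 on day 2, against 7.32, 6.75 and 6.26 on the 3 day 1 arrays with a usable spot, a 17.2-fold fall (adjusted p = 0.000208). *tnnt2c*, a further troponin T gene, averaged 4.12 ± 0.89 on day 2 and 6.91 ± 0.41 on day 1 and fell 6.90-fold. Smaller falls were found for *chrnd*, a subunit of the muscle acetylcholine receptor (1.57-fold), *bin1b*, a membrane-bending protein (1.77-fold, with overlapping days), and *tpm3*, a tropomyosin (1.29-fold).

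Regulators of myogenesis mostly fell. Of 17 genes 10 were lower on day 2, 5 of them by 2-fold or more, and 3 were higher, with a median of -0.60. The falls include chaperone genes of the list, *unc45b* and an Hsp90 gene, which are not regulators. *myog*, the myogenic factor that accompanies fusion, averaged 2.13 ± 0.11 on day 2 and 4.51 ± 0.21 on day 1 (SD, n = 4 each). The values within a day were close, and the gene fell 5.23-fold (adjusted p = 6.50e-10). *unc45b*, a myosin chaperone, fell 2.82-fold, *meox1*, a somite homeobox gene, 2.34-fold, and the myogenic determination genes *myf5* and *myod1* 2.15-fold and 1.51-fold. *smyd1a*, a muscle methyltransferase, rose 3.32-fold (adjusted p = 4.29e-08).

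Some genes of the tail bud and presomitic mesoderm fell to the Zf4 level or below detection. Of 27 segmentation genes 7 fell and 1 rose (0 rose without experiment 1, 2 or 4), with a median of -0.52, and 4 of the falls were 2-fold or more. *msgn1*, a bHLH gene of presomitic mesoderm, had 0.17, 0.03, 0.22 and 0.18 on day 2, against 4.53, 4.28, 4.24 and 3.69 on day 1. It lay at the Zf4 level on every day 2 array and fell 16.4-fold (adjusted p = 9.60e-09). *cdx4*, a caudal-type homeobox gene of the posterior body, averaged 2.96 ± 0.43 on day 2 and 6.82 ± 0.48 on day 1 without overlap, a 14.5-fold fall (adjusted p = 2.79e-06). *tbx6*, a T-box gene of the presomitic mesoderm, fell 4.90-fold. *mespaa*, which marks the next somite boundary, was not well above background on any day 2 array and was at least 4.18-fold lower there. Other genes of the list gave less. *her1* was well above background on 1 array of each day (difference -0.52, adjusted p = 0.606), *her11* had a difference of -1.73 (adjusted p = 0.0849), and *tbxta*, the zebrafish Brachyury gene, one of -1.50 without overlap between days (adjusted p = 0.0702, or 0.0415 without experiment 3).

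Early pluripotency and ventral factors fell with them, 12 of 27 lower (10 by 2-fold or more) and 5 higher, with a median of -0.58. *tdgf1*, the Nodal co-receptor one-eyed pinhead, had 1.42, 1.03, 0.69 and 1.04 on day 2, against 4.14, 3.75, 4.03 and 3.64 on day 1, a 7.18-fold fall (adjusted p = 3.15e-07). *lft2*, a Nodal antagonist, fell 5.99-fold and *pou5f3*, the zebrafish Oct4-type factor, 2.08-fold. *vent*, a ventral homeobox repressor, was not well above background on any day 2 array, against 3.37, 3.94, 2.79 and 0.75 on day 1, at least 3.46-fold lower, and *eve1*, a ventral and posterior homeobox gene, at least 2.68-fold lower on a probe of the same kind. On the brighter *eve1* probe used for the list, which was well above background on all 8 arrays, the gene averaged -0.19 on day 2 and 0.77 on day 1 and fell 1.94-fold (adjusted p = 0.000733). Other genes of the list rose. *gsc*, known for the organizer and later for the pharyngeal arches, rose 8.74-fold, and *evx1*, *gata2a* and *tfap2a*, which also act in spinal neurons, blood and neural crest, rose 1.93-fold, 1.84-fold and 1.79-fold.

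In the nervous system many differentiation genes rose. Of 49 genes of neuronal differentiation and synapse, 24 rose (19 by 2-fold or more) and 1 fell (2 without experiment 1), with a median of 0.81. *slc6a1b*, a GABA transporter, had 5.47, 5.97, 5.70 and 6.21 on day 2, against 3.85, 1.91, 1.87 and 4.14 on day 1, and rose 7.44-fold (adjusted p = 3.42e-05). Day 1 values of experiments 2 and 3 were lower than those of the other experiments. *camk2d2*, a calcium/calmodulin kinase, rose 5.01-fold, *rtn1b*, a reticulon of neurons, 4.96-fold and *snap25b*, a synaptic SNARE protein, 3.59-fold. *mpz*, myelin protein zero, was 2.01-fold lower on day 2 (adjusted p = 0.000104), with 0.42 ± 0.08 on day 2 and 1.43 ± 0.23 on day 1, and stood above its day 1 mean again by days 4 and 5, at 1.92 and 2.41.

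Of 27 progenitor and proneural genes, 6 rose and 2 fell (1 without experiment 1), with a median of -0.16. *fabp7a*, a lipid-binding protein of radial glia, rose 4.80-fold, *insm1a*, a zinc finger gene of newborn neurons, 3.67-fold and *neurod4* 2.27-fold, while the repressor gene *her9* fell 1.98-fold. *sox2*, *sox3* and *neurog1*, genes of dividing neural progenitors, had differences of -0.16, -0.89 and -0.40 (adjusted p = 0.780, 0.144 and 0.298). Among 31 forebrain and midbrain patterning genes 2 rose and 2 fell. These were *lhx1a* (7.05-fold) and *lhx5* (1.99-fold), LIM homeobox genes of neurons, and *irx1b* (5.37-fold lower) and *emx3* (1.55-fold lower), homeobox genes of the neural plate. The falls depended on single experiments: *irx1b* was not called without experiment 1 (adjusted p = 0.0514) or 4 (0.0920), nor *emx3* without experiment 1 (0.198), 2 (0.0804) or 3 (0.0733). The list counts also moved, to 4 rises without experiment 3 and to 0 falls without experiment 1 and 1 without experiment 2 or 3.

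Genes of DNA replication and the cell cycle formed the list with the largest share lower on day 2, 51 of 73, with 2 higher and a median of -0.57, although only 5 fell by 2-fold or more. *gmnn*, the replication licensing inhibitor geminin, averaged 2.89 ± 0.17 on day 2 and 4.57 ± 0.41 on day 1 without overlap, with a log2 change of -1.68 ± 0.18 SE (adjusted p = 5.02e-06). *orc6* and *orc1*, subunits of the origin recognition complex, fell 2.25-fold and 2.09-fold, *rpa2*, which coats single-stranded DNA, 2.05-fold, and the polymerase clamp *pcna* 1.73-fold. In *pcna* the day 2 value of experiment 1 stood at 1.13, against 0.44 to 0.53 in the others. The 2 higher genes were *cks1b*, a cyclin kinase subunit, and *ccng1*, a p53-responsive cyclin, 1.61-fold each. Among the 20 genes not called were the proliferation genes *mki67* and *top2a*, with differences of -0.08 each (adjusted p = 0.566 and 0.729).

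**Figure D3:**
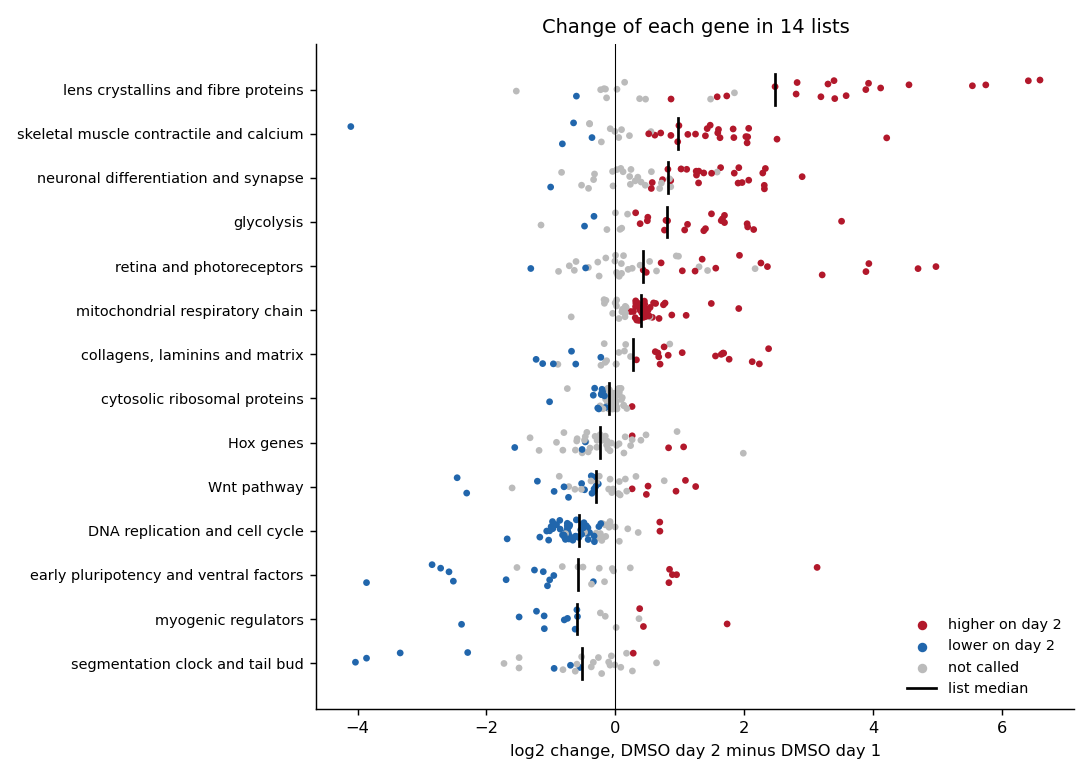
Log2 change, DMSO day 2 minus DMSO day 1, of each gene in 14 lists; red and blue points were called higher and lower on day 2, grey points were not called, and black bars are list medians. The cell cycle and respiratory chain lists form tight groups around medians of -0.57 and 0.39, while lens, muscle and early-factor genes spread over several log2 units.

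Energy metabolism rose broadly. Of 28 glycolysis genes 20 rose (13 by 2-fold or more) and 2 fell, with a median of 0.80. *pfkma*, the muscle phosphofructokinase, had 5.70, 5.72, 5.05 and 5.57 on day 2, against 2.53, 1.63, 0.14 and 3.71 on day 1. Its day 1 values were widely scattered, yet all lay below day 2 (11.4-fold, adjusted p = 7.77e-05). *pgam2*, the muscle phosphoglycerate mutase, rose 4.12-fold and *eno1a*, the ubiquitous enolase, 3.23-fold, whereas *hk1*, hexokinase 1, was 1.26-fold lower. Respiratory chain subunits rose in 37 of 54 genes with none lower (1 lower without experiment 2), at a median of only 0.39, and 3 rose by 2-fold or more. These included *ndufa4b* (3.76-fold), *cox6b1* (2.80-fold) and *cox4i2* (2.14-fold), subunits assigned to cytochrome oxidase, while the ATP synthase ring gene *atp5mc1* rose 1.83-fold. In experiment 3 the day 1 values of *ndufa4b* and *cox6b1*, at -3.73 and -3.49, were below all others.

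Ribosomal and proteasome genes changed by small amounts. Of 70 cytosolic ribosomal proteins 13 were lower (8, 7 and 6 without experiments 1, 2 and 4) and 1 higher (0 without any of the 4 experiments), and the median was -0.10. Proteasome subunits were lower in 8 of 41 (3 without experiment 3 or 4) and higher in 1, with *psme3*, the nuclear activator subunit, 1.63-fold lower and *psma8* 1.44-fold lower. Heat shock proteins and chaperonins were lower in 21 of 57 and higher in 6, with a median of -0.11. The list did not hold the heat shock cognate gene *hsc70*, which rose 31.4-fold and is described below. *hspb1*, a small heat shock protein of muscle and lens, had 1.86, 1.88, 1.31 and 1.94 on day 2, against 4.33, 4.42, 4.16 and 4.18 on day 1, a 5.75-fold fall (adjusted p = 4.75e-09). *hspd1*, the mitochondrial chaperonin, fell 1.94-fold, and *hsp90b1*, the endoplasmic reticulum Hsp90, and *dnajc5aa*, a synaptic vesicle co-chaperone, rose 2.02-fold and 2.38-fold.

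Of 20 heart genes 2 rose and 4 fell (2 without experiment 2). *nppa*, the atrial natriuretic peptide of working myocardium, had 2.05, 3.84, 2.34 and 2.76 on day 2, against -0.17, 0.26, -0.40 and 0.85 on day 1, where it was well above background on 1 array (log2 change 2.61, adjusted p = 2.80e-05), and *tbx2b*, a repressor of the atrioventricular canal, rose 1.83-fold. The early cardiac factors *nkx2.7* and *nkx2.5* fell 5.41-fold and 4.52-fold. Days overlapped for *nkx2.7*, and *nkx2.5*, well above background on 3 of the 4 day 2 arrays, was not called without experiment 2 (adjusted p = 0.0594) or 4 (0.0547). *gata5*, an endoderm and heart factor, fell 2.07-fold, while *gata4* and the cardiac myosin light chain *myl7* had differences of -0.27 and -0.37 (adjusted p = 0.104 and 0.619).

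In the blood lineage 5 of 26 genes rose and 6 fell. *hbbe1.1*, an embryonic beta-globin, had 2.76, 3.47, 2.56 and 3.45 on day 2, against 1.43, 1.76, 1.01 and 1.54 on day 1 (3.09-fold, adjusted p = 2.25e-06). *slc4a1a*, the band 3 anion exchanger, rose 2.75-fold, the embryonic alpha-globin *hbae3* 1.76-fold and the carbonic anhydrase *cahz* by 1.13 on the log2 scale. Several other globin genes were not called, among them a further embryonic beta-globin with a difference of -0.41 (adjusted p = 0.522). *gata1a*, the erythroid master regulator, fell 5.22-fold (adjusted p = 0.0201), but not past the test without experiment 2 (0.118) or 4 (0.123), where its day 2 value was -0.13 against 2.67 to 3.28 elsewhere. The haem synthesis enzymes *urod* and *hmbsa* also fell, *urod* 3.01-fold and *hmbsa* with a mean of -0.42 ± 0.12 on day 2 and 0.79 ± 0.21 on day 1. Other haem synthesis genes of the list, *cpox*, *fech* and *uros*, were not called, with differences of 0.19, 0.11 and -0.01 (adjusted p = 0.170, 0.269 and 0.971).

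In the endothelium 3 of 24 genes rose and 5 fell (3 without experiment 1, 2 or 3). *klf2a*, a flow-responsive factor, rose 1.78-fold, the angiopoietin receptor *tek* fell 1.34-fold, *flt4*, the lymphatic and venous receptor, fell 1.87-fold with overlapping days, and *kdr* had a difference of 0.12 (adjusted p = 0.917). Of 30 leukocyte genes 7 rose (4 and 3 without experiments 1 and 2, 10 without experiment 4) and 2 fell (1 without experiment 2 or 4). *lgals9l1*, a galectin, was at 2.08, 1.00, 1.84 and 3.63 on day 2 and not above background on day 1, a rise of at least 2.14-fold. *cpa5*, a mast cell carboxypeptidase well above background on 2 day 1 arrays, rose by 0.98 on the log2 scale. *ctsc*, a lysosomal protease, had -0.58, -0.22, -1.03 and -0.89 on day 2, against 3.29 and 3.29 on the 2 day 1 arrays with a usable spot, a 14.8-fold fall (adjusted p = 6.04e-09).

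More matrix and cartilage genes rose than fell. Of 34 matrix genes 16 rose (9 by 2-fold or more) and 6 fell (3 without experiment 2, 2 without experiment 4). *col1a1a*, a chain of collagen I, had 1.29, 1.36, 1.53 and 1.46 on day 2, against -0.58, -0.99, -0.78 and -0.48 on day 1. Embryos lay above the Zf4 fibroblasts on every day 2 array and below them on every day 1 array (4.35-fold, adjusted p = 5.25e-09). *tnn*, tenascin N, rose 5.19-fold, *col1a1b* 4.70-fold and *col1a2* 3.39-fold, while *thbs3a*, a thrombospondin, fell 2.35-fold. Among 28 cartilage and bone genes 11 rose and 1 fell (2 without experiment 3): *chad*, chondroadherin, rose 7.35-fold (well above background on 3 day 1 arrays), *nkx3-2*, a jaw joint regulator, 2.61-fold, *epyc*, epiphycan, 2.58-fold with overlapping days, and *matn4*, matrilin 4, 2.29-fold, and *mgp*, matrix Gla protein, fell 4.26-fold (adjusted p = 0.00836).

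In skin, 7 of 29 genes rose and 6 fell (3 without experiment 2 or 4). The keratin gene *krt15* rose 5.43-fold, *icn*, an S100 protein of skin called ictacalcin, 2.57-fold and *krt18b* 2.43-fold. Of 19 ionocyte genes 4 rose (2 without experiment 1 and 1 without experiment 4) and 2 fell (1 without experiment 1). Of 19 pigment cell genes 6 rose (3 without experiment 2) and 3 fell (1 without experiment 2), with *dct*, a melanin synthesis enzyme, 1.43-fold higher and *gart*, a purine synthesis enzyme needed by iridophores and xanthophores, 2.34-fold lower. Neural crest and pharyngeal arch genes numbered 7 rises (4 without experiment 2) and 5 falls of 29.

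Of 43 genes of liver, plasma and yolk lipoprotein 9 rose (5 without experiment 4) and 4 fell (2 without experiment 4). *hgd*, a tyrosine breakdown enzyme, averaged 2.36 ± 0.24 on day 2 and -0.16 ± 0.22 on day 1 and rose 5.75-fold, and *cp*, the copper carrier ceruloplasmin, rose 2.44-fold. *f9a*, coagulation factor IX, was at least 1.68-fold lower on day 2, when its probe was not above background. Of 23 pancreas and gut genes 1 rose and 1 fell (2 rose without experiment 3; 0 fell without experiment 2 or 3, and 2 without experiment 1). The riser was *gcga*, glucagon, at 3.38, 2.07, 2.71 and 1.43 on day 2, where it was well above background on 1 array. It was at -0.06 to 0.00 on day 1 (adjusted p = 0.00134), where it was not well above background on any array. Values of exactly 0 mostly stand for spots with no signal over background. The narrow day 1 spread is therefore not a measured one, and the adjusted p is uncertain. The bound computed for the rise was 1.35-fold. It rests on a mean day 2 signal that was well above background on only 1 array, so it is not a firm minimum. In the pronephros 2 of 16 genes rose, the transcription factor genes *lhx1a* and *gata3* (2.06-fold). *lhx1a* is also counted in the forebrain and midbrain list above, and whole-embryo RNA does not show which tissue its rise came from. Of the 3 falls 1 was 2-fold or more, and *hnf1ba*, another kidney transcription factor, was 1.60-fold lower.

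In the hatching gland *he1.2*, a hatching enzyme gene, had 6.43 ± 0.28 on day 2 and 6.61 ± 0.19 on day 1 and did not pass the test (adjusted p = 0.852). Its relative *he1.3* fell 2.66-fold to the Zf4 level on day 2, 1 of 2 falls among 7 genes (1 fall without experiment 3 or 4). By days 3, 4 and 5 *he1.2* stood at 2.89, -0.51 and -0.14. In the notochord 2 of 17 genes rose (1 without experiment 2 or 3, 0 without experiment 4) and 4 fell (2 without experiment 1 or 2), including *noto*, the homeobox gene floating head, 5.45-fold lower. Of 19 inner ear and lateral line genes 4 rose (2 without experiment 2 or 3) and 3 fell, with *pax2b*, a paired box gene of the otic vesicle, 2.35-fold higher and its days overlapping.

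In the Wnt, Fgf, hedgehog, Notch and Bmp lists more genes fell than rose, as over all probes. The shares lower were 37.5%, 25.9%, 33.3%, 21.4% and 25.8%, beside 16.9% of all probes. The shares higher were 15%, 7.4%, 0%, 7.1% and 16.1%, beside 14.6%. Medians of the Fgf, Notch and Bmp lists did not keep their sign under every alternative. Of 40 Wnt genes 15 fell and 6 rose. *sp5l*, a Wnt target of the tail bud, fell 5.48-fold and the receptor gene *fzd7a* 1.74-fold, while the effector *lef1*, the ligand *wnt4b* and *tcf7l2* rose 2.37-fold, 2.12-fold and 1.92-fold. In the Fgf pathway 7 of 27 fell (4 without experiment 1) and 2 rose (1 without experiment 3). The falls included the feedback inhibitors *il17rd* (1.61-fold) and *dusp6* (1.29-fold) and the target *etv5b* (1.41-fold). The 2 falls of 2-fold or more were in ligand genes, and the list median was -0.04. A further feedback gene fell 1.26-fold, while other feedback and target genes, with differences of 0.04, -0.02 and -0.34, were not called. Of 18 hedgehog genes 6 fell and none rose (1 rose without experiment 3), led by the signal transducer *smo* (1.90-fold) and the effector *gli2a* (1.70-fold). In the Notch pathway 6 of 28 fell (3 without experiment 1) and 2 rose (0 without experiment 1 or 2 and 1 without experiment 4), with the repressor *her3* 2.74-fold and the ligand *jag2b* 1.68-fold lower.

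In the Bmp and Tgf-beta pathway 8 of 31 fell (5 without experiment 2 or 4) and 5 rose. The inhibitors *nog3* and *smad7* rose 2.65-fold and 2.62-fold, and the receptor *bmpr1ba* was 3.13-fold lower. For the last gene the 4 day 2 arrays spanned 0.82 to 0.87 and the 4 day 1 arrays 2.29 to 2.64. Of 18 retinoic acid genes 5 rose and 2 fell. The binding proteins *crabp1b* and *crabp1a* rose 2.14-fold and 1.77-fold, and the synthesis enzymes *rdh10b* and *aldh1a2* fell 2.24-fold and 1.46-fold. Among 43 Hox genes only 3 rose (1 without experiment 2) and 3 fell, with *hoxb5a* 2.08-fold higher. Of 27 clock and pineal genes 7 rose, *crx* among them, and 3 fell (1 without experiment 1 or 2). The pineal homeobox gene *otx5* rose 2.54-fold, *per1b*, a clock repressor, rose 1.58-fold with overlapping days, and *tefa*, a clock output factor, fell 1.42-fold. RNA was taken at the same hour each morning.

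Outside the lists, the largest falls brought several proteases. *ctsll*, a cathepsin L-like gene, averaged 2.17 ± 0.51 on day 2 and 6.38 ± 0.53 on day 1 without overlap, an 18.6-fold fall (adjusted p = 5.17e-06). *ctss1* and *ctsh*, further cathepsins, fell 8.83-fold and 7.72-fold. *ednrab*, an endothelin receptor, had 1.17, 2.88, 0.98 and 0.18 on day 2, against 5.67, 4.69, 4.81 and 4.59 on day 1, and fell 12.4-fold. *drl*, a zinc finger gene of lateral mesoderm, fell 7.87-fold. *uox*, urate oxidase, averaged 1.44 ± 0.46 on day 2 and 5.41 ± 1.23 on day 1 on a second probe and fell 15.7-fold there, and its 6 probes ranged from -3.97 to 0.19. *arl3l2*, a small GTPase gene, fell 7.03-fold. The leading risers included *hsc70*, a heat shock cognate gene, at 4.76, 5.18, 4.86 and 5.45 on day 2, against 0.37, 0.17, -0.19 and 0.02 on day 1 (31.4-fold). *ndrg1b*, an N-myc downstream regulated gene, rose 25.4-fold. Across the array 118 probes were well above background on all day 2 arrays and no day 1 array, and 23 the reverse.

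The first daily step called the most probes. Beside its 31.5%, day 3 minus day 2 called 15.3% (3280 probes; 7.54% higher and 7.72% lower), day 4 minus day 3 called 14.8% (3173; 6.73% and 8.04%) and day 5 minus day 4 called 6.13% (1318; 2.35% and 3.78%). Adjoining steps share arrays. At 2-fold or more the shares were 7.84%, 2.26%, 2.44% and 0.591%. Leaving out 1 experiment lowered the later counts to between 1645 (without experiment 1) and 2238 (without experiment 3) for day 3 minus day 2, to 1927 there without experiment 4, to 1548 (without experiment 2), 1606 (without experiment 4) and 2905 (without experiment 3) for day 4 minus day 3, and to 568, 416, 658 and 367 without experiments 1 to 4 for day 5 minus day 4. In the later steps 54, 33 and 12 cell cycle genes were lower, and 38, 25 and 0 respiratory chain genes were higher. Lens genes were higher in 7, 0 and 1 cases and retina genes in 21, 14 and 1. Probes that had risen by 2-fold or more by day 2 had median changes from day 1 of 1.55, 1.99, 2.14 and 2.12 on days 2, 3, 4 and 5, and probes that had fallen had -1.27, -1.48, -1.38 and -1.45. These comparisons share the day 1 arrays. On later days the second probe of *uox* stood at 4.58, 6.26 and 6.18 on days 3, 4 and 5, and *arl3l2* at 3.47, 4.60 and 4.73.

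**Figure D4:**
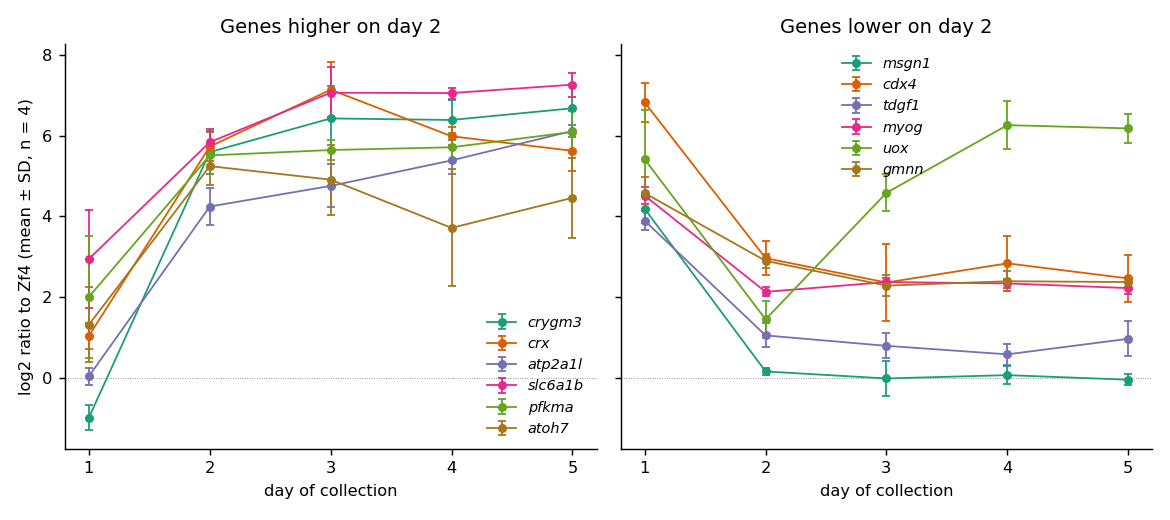
Mean log2 ratio to Zf4 on days 1 to 5 in DMSO embryos (± SD, n = 4) for 6 genes higher and 6 genes lower on day 2. *msgn1* and *myog* stay near their day 2 means, and *atp2a1l* stands at 6.12 on day 5. *uox* is drawn from its second probe only, at 1.44 on day 2 and at 4.58, 6.26 and 6.18 on days 3, 4 and 5.

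The step was also measured in dioxin-exposed embryos. TCDD day 2 minus TCDD day 1, which shares no array with the DMSO step, called 5666 of 21495 probes (26.4%), 2793 higher (13.0%) and 2873 lower (13.4%). Of the 6779 probes called in DMSO embryos, 6671 (98.4%) moved in the same direction under TCDD, 4961 of them past the test, and 1 probe was called in opposite directions. The 995 probes that rose by 2-fold or more in DMSO embryos had median changes of 1.55 in TCDD embryos and 1.55 in DMSO embryos, and the 691 that fell had -1.13 and -1.27. These probes were chosen by their DMSO change, which tends to enlarge the DMSO medians but not the TCDD ones. The interaction, the TCDD step minus the DMSO step, called 0 of 21492 probes (0.0%), with a smallest adjusted p of 0.217 (limma). At an unadjusted p below 0.05 (limma) there were 600 probes (2.79%), a smaller share than chance alone gives at that threshold. Without experiment 3 there were 1154 such probes (smallest adjusted p 0.754), and without experiments 1, 2 and 4 there were 465, 472 and 512. With 3 TCDD day 2 arrays, differences between the steps may not have been detectable. The paper reports that dioxin induction of a well-studied marker gene grew between these days. As no probe was called for the interaction, large differences may also have been missed. The absence of calls therefore does not show that the steps were the same.

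**Figure D5:**
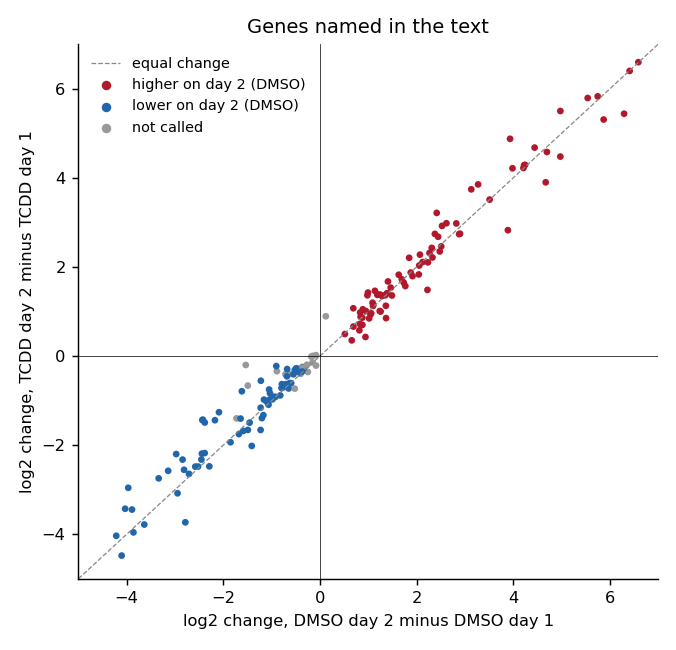
Log2 change of the genes named in the text in TCDD embryos (TCDD day 2 minus TCDD day 1, vertical) against DMSO embryos (DMSO day 2 minus DMSO day 1, horizontal); red, blue and grey mark genes called higher, lower and not called in DMSO embryos. Most of the genes were chosen by their DMSO change. Points broadly follow the dashed line of equal change. Exceptions include *meox1* (-1.22 in DMSO and -0.56 in TCDD embryos) and *he1.3* (-1.41 and -2.02).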

How the data were processed

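Whole-embryo RNA from DMSO-treated zebrafish was hybridised with Zf4 reference RNA on 2-colour Agilent 22K oligonucleotide arrays. The authors read the scans with Agilent Feature Extraction 8.1.1. The deposited files give a log10 ratio of red (embryo) to green (Zf4) after within-array dye normalization, processed, mean and background intensity for each channel, and other flags for background, saturation and outliers. A deposited table of the series held the same log10 ratios (838305 values compared, all equal within 1e-06). The outlier-flagged spots were left out, control spots (1080 of them) were excluded, and ratios were turned into log2. The deposited value was exactly 0 for 8551 of 171616 spots, of which 8536 had neither channel well above background. Such values carry no measured spread, so the adjusted p of genes that hold them, such as *gcga* and the *grifin* probe, is uncertain.

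DMSO day 2 was compared with DMSO day 1 in limma 3.58.1 (R 4.3.3) over the 20 DMSO arrays, with day and experiment as terms and Benjamini-Hochberg adjustment over all probes. The TCDD step and the interaction came from the same model over 39 arrays. No set test was made. Numbered experiments are independent repeats, and deviations from group means correlated within a number at a median of 0.175 (0.137 to 0.303, 4 pairs), against -0.098 between numbers (12 pairs). On simulated data of this comparison over 21495 probes, the fit recovered 67% of planted changes of 1 log2 unit and 32% of planted changes of 0.5 log2 units. Changes of each size were planted in 200 probes, far fewer than the 6779 called in the real comparison. The adjusted p depends on that share, so these figures do not give the detection rate of the real comparison.

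Gene names came from RefSeq (7342 of 7847 accessions matched), symbols or synonyms, and for 1635 probes from the array's own label. They covered 11911 of 21495 probes. A gene in a list was represented by its probe with the brightest signals. Named genes were the up to 4 largest rises and falls of a list among called genes of the same direction in all 4 experiments, the 12 largest rises and falls on the array, and genes that crossed background, of which the text gives some. *myod1*, *pcna*, *pou5f3*, *snap25b*, *tnnt1*, *ctsc* and the uncalled genes named were added after their values were seen. Members and lists were chosen with earlier results of these data known. Where a probe was not well above background on any array of a day, a lower bound on the fold was computed from channel levels after between-array normalization. Depth does not apply to arrays, and the number of arrays limits the precision. Alternatives tried were other normalizations, the embryo channel alone, bright probes only, array weights, only the 8 arrays, scan batch, no block, and leaving out each experiment.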

Additional observations from a re-analysis of the deposited data

Results flagged for a closer look

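Among 340 groups of 4 arrays (1 gene on 1 day) of the genes named above, 24 held 1 array that stood apart from the other three by Dixon's test at 95%. For continuous values chance alone flags about 1 group in 20. That rate does not hold for *lgals9l1*, *gcga* and the *grifin* probe on day 1. Their other values were all 0.00, so any different value is flagged. The arrays apart were experiment 1 (6), 2 (1), 3 (1) and 4 (5) on day 2, and experiment 1 (4), 2 (1) and 3 (6) on day 1. All values are log2 ratios to Zf4, and their causes were not tested.

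On day 2 in experiment 1, *sox2* stood at 8.63 (others 7.21 to 7.32), *pcna* at 1.13 (0.44 to 0.53), *crygm2d18* at 7.15 (7.62 to 7.70), *tfap2a* at -0.11 (0.12 to 0.15), *emx3* at 2.67 (3.11 or above) and *col1a1b* at 1.41 (1.68 to 1.72). In experiment 4, *mgp* stood at -0.65 (0.12 to 0.14), *mki67* at -0.04 (-0.29 to -0.26), *he1.3* at 0.13 (-0.11 to -0.09), *dusp6* at -0.06 (-0.27 to -0.24) and *smo* at -1.05 (-0.89 to -0.87). In experiment 2, *smad7* stood at 1.74 (1.87 to 1.88), and in experiment 3, *hspb1* at 1.31 (1.86 to 1.94).

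On day 1 in experiment 3, *ndufa4b* stood at -3.73 (others -2.21 to -1.96), *cox6b1* at -3.49 (-2.07 to -1.88), *slc4a1a* at 3.13 (3.77 to 3.80), *chad* at -1.36 (-0.73 to -0.67), *dct* at 0.25 (0.53 to 0.54) and *lgals9l1* at -0.34 (0.00). In experiment 1, *atoh7* stood at 2.69 (0.74 to 1.04), *hspd1* at -0.35 (0.03 to 0.04), *gcga* at -0.06 (0.00) and the *grifin* probe near background at 1.78 (0.00). In experiment 2, the *eve1* probe near background stood at 2.65 (0.75 to 1.02).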

How the results depend on the processing

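The 6779 probes called compare with 6176 without the replicate block and 5225 when only the 8 arrays were fitted, and with 5181 (without experiment 2) to 5870 (without experiment 1) when an experiment was left out. Without the block, *gata1a* was the 1 named gene no longer called (adjusted p = 0.0610). Within scan batch 2, experiments 2 and 3, 3581 probes were called (1682 higher, 1899 lower), and the other batches hold 1 pair each. After normexp background correction and loess, 6994 were called (3516 higher, 3478 lower), but only 609 rose and 243 fell by 2-fold or more. The embryo channel alone called 6250 (3073 higher, 3177 lower). Later daily steps lay between 1645 and 2238 (day 3 minus day 2), 1548 and 2905 (day 4 minus day 3) and 367 and 658 (day 5 minus day 4) when an experiment was left out. The interaction with TCDD called 0 probes without the replicate block and without each experiment, the only alternatives run for it.

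All 153 named genes past the test kept their direction under every alternative, and 148 stayed past it without each experiment. Most of these genes were chosen from called genes with the same direction in every experiment. Their direction without an experiment or within a scan batch was therefore largely fixed by that choice, and is no separate check. Of the 153 genes, 6 were not called when only the 8 arrays were fitted, and 20 were not called within scan batch 2. Leaving scan batch 2 aside, 140 stayed past the test under every alternative. *cks1b*, *cpa5* and *f9a* were not called after normexp and loess, and *flt4*, *tefa* and *tpm3* not with the embryo channel alone. Medians of 16 of 39 lists took another sign, or 0, under at least 1 of 20 alternatives, forebrain patterning, progenitors, epidermis, neural crest and the Fgf, Bmp, Notch and proteasome lists among them. Heart was 0.00 and erythroid -0.0569 within scan batch 1, and pigment cells were -0.0145 within scan batch 2, -0.0220 with array weights and -0.0350 to 0.315 without 1 experiment. The causes were not tested. Probes near background or saturated in the embryo channel limit what can be said of the lowest and brightest genes.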
